A study of Mus musculus with 4 samples.

Results

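The cytosolic ribosomal proteins are the structural proteins of the large and small subunits of the cytoplasmic ribosome. Probe sets were taken as members when the platform annotation gave them exactly 1 gene symbol and that symbol was Rpl or Rps followed by a digit, or Rplp0, Rplp1, Rplp2 or Rpsa. Ribosomal protein kinases, Rps19bp1 and symbols marked as pseudogenes were left out. The rule kept 218 of 35556 probe sets, which stood for 62 of 19946 genes with a single-gene probe set: 38 genes of the large subunit (132 probe sets) and 24 of the small subunit (86 probe sets). No measured value entered the choice.

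The values came from 4 Mouse Gene 1.0 ST arrays, 2 from mice labelled GABPα-deficient (Mx1Cre-GABPa(FL/-), 1 floxed and 1 null allele) and 2 from controls (Mx1Cre-GABPa(FL/+), 1 floxed and 1 wild-type allele). Both groups carried the Mx1-Cre transgene, whose promoter answers interferon, and both were given pIpC, a double-stranded RNA analogue that induces interferon and so switches on the recombinase. Flt3(-) LSK cells, bone marrow cells without lineage or Flt3 antigens and with Sca-1 and c-Kit, were sorted 4 days after the last dose from mice 6 to 8 weeks old that had been backcrossed to C57/BL6 for 4 generations. RNA inputs of 800 pg to 50 ng were amplified with a whole-transcript kit. The control cells were thus not fully wild-type, and Mx1-Cre acts in many interferon-responsive cell types beside blood cells. The labels do not say that the arrays came from separate animals, so each p-value here reflects the spread among these samples, which may be technical.

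Each cytosolic ribosome carries 1 copy of nearly every ribosomal protein, and the genes are usually transcribed in concert at high levels. Their mRNAs typically begin with a run of pyrimidines (the TOP motif), through which mTOR signalling adjusts their translation. Many of their promoters hold binding sites for ETS factors, the family to which GABP belongs, and the mouse Rpl30 promoter is a long-known GABP target. In blood formation, loss of single ribosomal protein genes is known in humans for its effect on red cell precursors.

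The deposited values were log2 RMA expression values, and the arrays had medians of 5.93 and 6.01 in the deficient group and of 5.87 and 5.91 in the control group. Gabpa itself read 6.43 and 7.85 on the deficient arrays, against 8.43 and 7.28 on the control arrays. The groups overlapped (difference −0.71, SE 0.68, limma adjusted p = 0.605), and where the probes lie relative to the deleted exons was not known here, so the groups are called by their labels. Kit, which encodes the c-Kit antigen of the gate, read 7.70 and 8.50 on the deficient arrays, against 10.21 and 10.21 on the control arrays (difference −2.11, SE 0.32, limma adjusted p = 0.288). Flt3, whose surface protein the gate excluded, read 5.68 and 5.95, against 8.43 and 9.27 in controls (difference −3.03, SE 0.35, limma adjusted p = 0.222). Among the marker lists of other cell types, the erythroid list had the highest median difference (14 of 18 genes measured). In it 13 genes were higher without overlap, against 42.9% of all genes. The lists did not all run one way, and their values close the results. The erythroid list's summed linear value ran from 20182 to 20942 on the deficient arrays and from 5433 to 5503 on the control arrays. RMA values have no true zero. In such bulk samples fewer cells of a type and less RNA per cell cannot be told apart. The part of these lists in the results below was not tested.

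The promoters of the genes on which the results turn are shown first, because GABP recognises sites built around GGAA. The windows cover 100 bases before and 25 bases after the start annotated by RefSeq on GRCm38.p6, 5′ to 3′ on the gene's strand. Capitals mark the 6-base ETS core CGGAAG or its reverse complement CTTCCG. Rps27l, a paralog of a small subunit protein and the member with the lowest p, is shown at the first of its 2 annotated starts (chr9:66945986-66946110, plus strand), and Rpl39l, the member with the largest difference, at chr16:10170128-10170252 (plus strand). Rps6 (chr4:86857343-86857467, minus strand), Rps7 (chr12:28635929-28636053, minus strand), Rps18 (chr17:33955641-33955765, minus strand) and Rpl38 (chr11:114668480-114668604, plus strand) are core proteins whose windows hold 2 or 3 cores. Rps9 (chr7:3703941-3704065, plus strand) is a core protein whose window holds none, chosen after its values were seen.
Rps27l: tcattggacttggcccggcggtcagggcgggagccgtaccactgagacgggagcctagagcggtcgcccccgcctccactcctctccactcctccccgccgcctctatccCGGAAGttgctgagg
Rpl39l: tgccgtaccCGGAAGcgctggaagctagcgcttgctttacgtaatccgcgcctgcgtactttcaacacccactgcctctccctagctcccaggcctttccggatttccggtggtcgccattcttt
Rps6: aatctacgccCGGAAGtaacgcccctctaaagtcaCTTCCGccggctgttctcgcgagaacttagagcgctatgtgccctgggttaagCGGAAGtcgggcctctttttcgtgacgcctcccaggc
Rps7: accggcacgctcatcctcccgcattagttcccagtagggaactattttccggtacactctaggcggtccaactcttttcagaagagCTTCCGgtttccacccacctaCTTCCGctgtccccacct
Rps18: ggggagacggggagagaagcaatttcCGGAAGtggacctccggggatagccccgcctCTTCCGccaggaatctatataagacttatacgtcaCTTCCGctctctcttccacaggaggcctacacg
Rpl38: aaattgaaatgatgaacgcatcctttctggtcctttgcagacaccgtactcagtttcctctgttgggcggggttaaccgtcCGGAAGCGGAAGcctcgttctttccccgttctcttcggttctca
Rps9: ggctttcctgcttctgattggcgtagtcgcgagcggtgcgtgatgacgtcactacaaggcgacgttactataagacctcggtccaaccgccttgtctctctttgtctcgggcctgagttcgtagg
The cores of Rps6, Rps18 and Rpl38 lay within the 100 bases before the start, and in Rpl38 a pair of cores adjoined each other. In Rps27l the core lay 10 bases past the start.

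Over the full promoter windows of 250 bases before to 50 bases after the start, RefSeq entries matched 50 of the 62 genes. A gene was counted for a motif when any of its annotated promoters held it. The 7-base motif CCGGAAG, searched on both strands, was found in 19 of them (38.0%). The share was 2683 of all 27025 genes with a promoter (9.93%) and 13.6% of the 15614 measured ones. It was found in 10 of 20 small subunit genes (50.0%) and in 9 of 30 large subunit genes (30.0%). The shorter CGGAAG, which every CCGGAAG contains, was found in 33 of the 50 (66.0%), against 18.8% of all genes with a promoter and 24.7% of the measured ones. For genes of the mitochondrial ribosome, a separate machine encoded by other nuclear genes, the shares were 36.8% and 55.9%. A pyrimidine run at the start was a C followed by at least 4 C or T bases on the gene's strand within 5 bases of the annotated start. It was found in 19 members (38.0%), against 21.2% of all genes with a promoter. These are matches of letters, and a match is not a bound site.

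**Figure D1:**
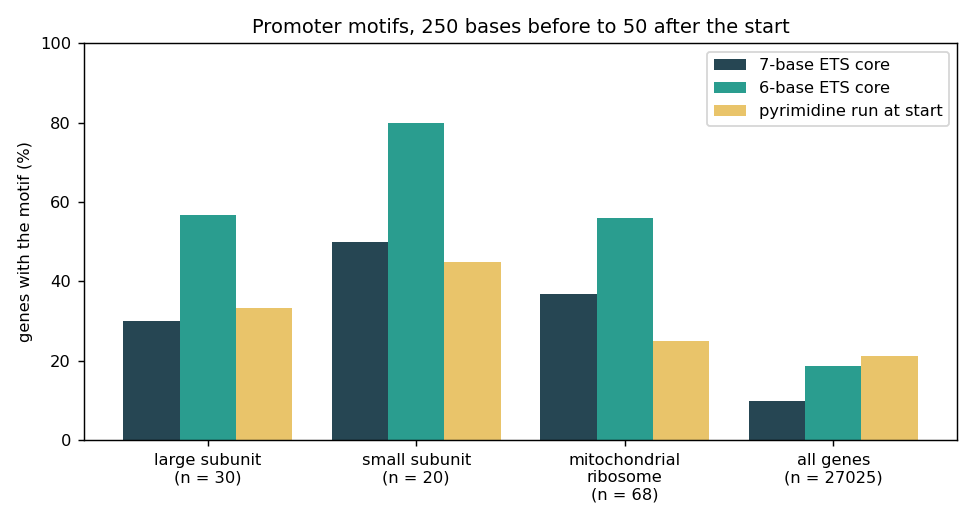
Share of genes (percent, vertical axis) for which any RefSeq promoter holds a motif, for large subunit, small subunit, mitochondrial ribosome and all genes. The motifs are the 7-base core CCGGAAG and the 6-base core CGGAAG (both strands) and a pyrimidine run at the start. The 6-base core was found for 80.0% of small subunit genes, against 18.8% of all genes with a promoter.

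The comparison addressed here is how ribosomal protein expression differed between stem-cell-enriched cells labelled GABPα-deficient and their controls. The ribosomal proteins differed little between the groups by value. Of the 62 genes, 47 (75.8%) differed by no more than 0.15 on the log2 scale, against 24.0% of all genes. The median difference was −0.027 for the members and 0.16 for all genes, and the median size of a difference, whatever its sign, was 0.069 for the members and 0.29 for all genes. The band of 0.15 is centred on 0, and the median of all genes lay just outside it. That offset therefore enters the share and the median size of all genes, and how far it does was not tested. With cyclic loess the median of all probe sets was −0.0045. The members were also the closer pairs between replicates, with a median gap of 0.073 between the deficient arrays and 0.087 between the control arrays, against 0.22 and 0.20 for all genes.

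No member passed limma's test with Benjamini-Hochberg adjustment over all probe sets (lowest adjusted p = 0.406 among the genes). No probe set of the whole table passed either (0% called, lowest adjusted p = 0.169). At an unadjusted p under 0.05 no member gene was lower, against a background of 6.36% of all genes, and 1 member, Rps27l, was higher, against 6.99%. The groups did not overlap for 25 members (40.3%), 12 lower and 13 higher on the deficient arrays, against 58.1% of all genes (15.2% lower and 42.9% higher). The 95% interval of a member's difference had a median half-width of 0.41, without allowance for the number of probe sets tested. A call after adjustment takes a larger difference than that, so shifts well above 0.41 may go uncalled with 2 arrays a group.

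Most members sat near the top of the array's range. Of the 115 genes that averaged 12 or above, 45 were members. Among these 45, the median size of a difference was 0.059 and 41 (91.1%) lay within 0.15. Among the other 70 genes as bright, the median size was 0.15 and 36 (51.4%) lay within 0.15. The 17 members below 12 had a median size of 0.23. How far the top of the signal range limits these differences was not tested.

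**Figure D2:**
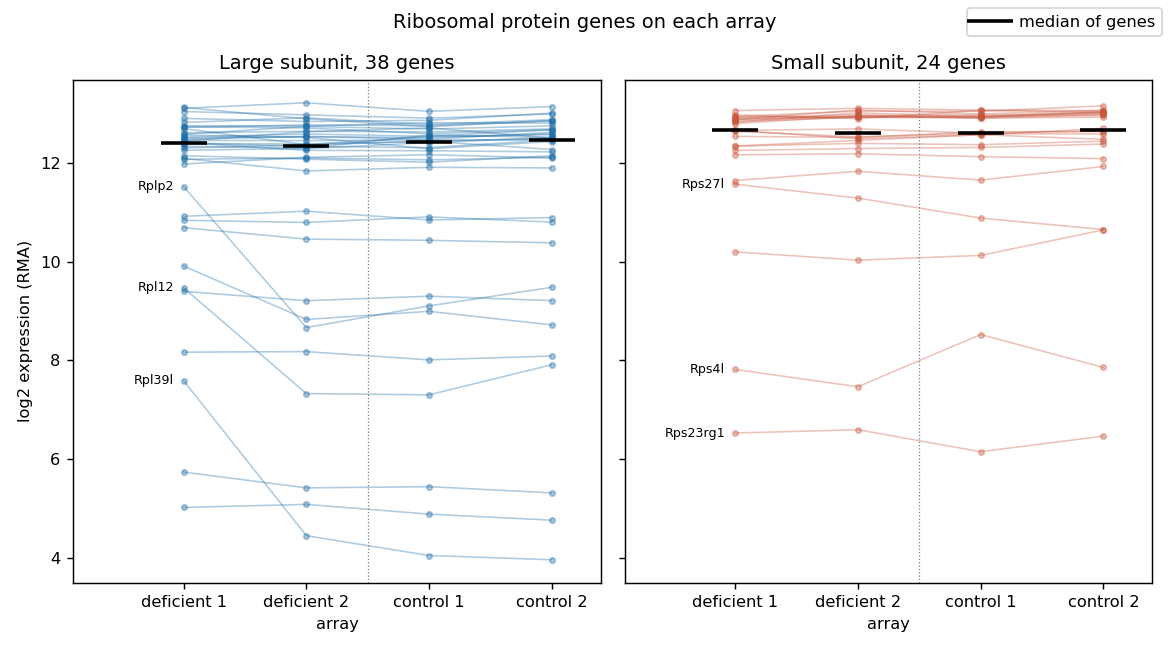
Log2 expression (vertical axis) of the 38 large and 24 small subunit genes on the deficient and control arrays; each line follows 1 gene and black bars are medians over genes. The large subunit medians were 12.40 and 12.36 on the deficient arrays and 12.43 and 12.47 on the control arrays, while a few genes below 12 were high on deficient replicate 1 alone.

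The large subunit, which holds the peptidyl transferase centre, had a median difference of 0.014, which turned to −0.025 with cyclic loess and −0.066 with array medians subtracted, with 19 genes below 0 and 19 above. Its gene medians were 12.40 and 12.36 on the deficient arrays, against 12.43 and 12.47 on the control arrays. Of the 38 genes, 27 (71.1%) lay within 0.15, and 14 had groups that did not overlap, 5 lower and 9 higher, against 15.2% of all genes lower and 42.9% higher. Without the 5 paralogs whose symbols end in l or l1, the median of the remaining 33 genes was −0.019.

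Rpl21 had the lowest difference of the large subunit. Its brightest probe set (10569996) read 12.34 and 12.30 on the deficient arrays, against 12.57 and 12.52 on the control arrays. Both deficient values lay below both control values (difference −0.22, SE 0.14, limma adjusted p = 0.489). All 9 Rpl21 probe sets were lower without overlap, by −0.55 to −0.17, and 3 of them were the only member probe sets lower at an unadjusted p under 0.05, against 5.25% of all probe sets (0.0189, 0.0452 and 0.0445, limma adjusted p = 0.392, 0.414 and 0.414). Probe sets of ribosomal protein genes lie partly on near-identical copies, so the 9 are not independent and their assignment to 1 locus is uncertain.

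Rpl24, whose mutation gives the Belly spot and tail mouse, read 12.26 and 12.30 on the deficient arrays, against 12.42 and 12.52 on the control arrays. The groups did not overlap (difference −0.19, SE 0.14, limma adjusted p = 0.531), and all 3 of its probe sets were lower. Rpl36a read 12.40 and 12.39, against 12.45 and 12.50 in controls, again without overlap (difference −0.08). Rpl4, which lines the peptide exit tunnel, read 12.45 and 12.64 on the deficient arrays and 12.72 and 12.51 on the control arrays, and these overlapped.

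Rpl5, which with Rpl11 carries a small ribosomal RNA into the ribosome and binds the p53 regulator Mdm2 when free, read 11.98 and 12.12 on the deficient arrays and 12.17 and 12.11 on the control arrays. The values overlapped (difference −0.088, SE 0.15, limma adjusted p = 0.760). In its other 4 probe sets the deficient values were lower without overlap, and over all 5 the differences ran from −0.28 to −0.088. Rpl11 shared its probe sets with other symbols and was not analysed here. Rpl26, which is known to bind p53 mRNA, read 12.31 and 12.37 on the deficient arrays and 12.45 and 12.28 on the control arrays, with overlap. Rpl22, dispensable for the ribosome itself but needed for the development of αβ T cells in mice, read 10.84 and 10.80 on the deficient arrays, against 10.91 and 10.80 on the control arrays with overlap (difference −0.038, limma adjusted p = 0.897).

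Rpl38, which in mouse embryos favours the translation of certain Hox mRNAs, read 12.59 and 12.75 on the deficient arrays and 12.69 and 12.76 on the control arrays, with overlap. Its promoter carries the adjoining pair of ETS cores shown above. Rpl10, which joins late in assembly and is mutated in some human T cell leukaemias, read 12.74 and 12.71, against 12.60 and 12.68 in controls. These did not overlap (difference 0.089, limma adjusted p = 0.744). All 6 of its probe sets were higher without overlap, by 0.069 to 0.17. Rpl30, named after its values were seen for its known GABP site, read 9.40 and 9.21 on the deficient arrays and 9.30 and 9.21 on the control arrays, a difference of 0.048 with overlap.

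The stalk proteins recruit translation factors to the large subunit. Rplp0, its base, was among the brightest members at 13.11 and 13.23 on the deficient arrays and 13.05 and 13.15 on the control arrays, which overlapped (difference 0.070, limma adjusted p = 0.811). The other Rplp0 probe set was higher without overlap, by 0.19. Rplp1 read 13.13 and 12.90, against 12.74 and 12.87 in controls, without overlap (difference 0.21, SE 0.16, limma adjusted p = 0.548). Rpl36, another of the brightest, read 13.05 and 12.98 on the deficient arrays and 12.91 and 13.00 on the control arrays, with overlap. Rpl37a, also among the 3 brightest of the subunit, read 12.91 and 12.85, against 12.87 and 13.02 in controls, with overlap (difference −0.066).

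In 4 members the deficient arrays differed from each other by more than 1 on the log2 scale, and in none did the control arrays. In each of them deficient replicate 1 was the high array. Rplp2, a stalk protein, read 11.53 and 8.66 on the deficient arrays, against 9.10 and 9.48 on the control arrays (difference 0.80, SE 1.05, limma adjusted p = 0.697). Rpl12, which sits at the stalk base, read 9.47 and 7.33, against 7.30 and 7.91 in controls (difference 0.79, SE 0.82, limma adjusted p = 0.629). Deficient replicate 2 lay below both controls for Rplp2 and between them for Rpl12. The Rplp2 and Rpl12 probe sets list no curated RefSeq mRNA, so what they measure is uncertain. Without deficient replicate 1 the differences were −0.63 for Rplp2 and −0.28 for Rpl12, against 2.23 and 1.87 without deficient replicate 2.

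The other members with that split were the paralogs Rpl39l and Rpl7l1. Rpl39l, best known from mammalian testis, read 7.59 and 4.44 on the deficient arrays, against 4.04 and 3.95 on the control arrays. The groups did not overlap (difference 2.02, SE 1.15, limma adjusted p = 0.470), but the difference was 0.45 without deficient replicate 1 and 3.59 without deficient replicate 2. Rpl7l1, an assembly factor related to Rpl7, read 9.91 and 8.83, against 8.99 and 8.72 in controls, with overlap (difference 0.52, SE 0.43, limma adjusted p = 0.564). The mitochondrial ribosome list was also highest on deficient replicate 1, with gene medians of 9.71 and 8.96 on the deficient arrays and 8.90 and 8.87 on the control arrays. Without deficient replicate 1 the Rpl7l1 difference was −0.027.

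**Figure D3:**
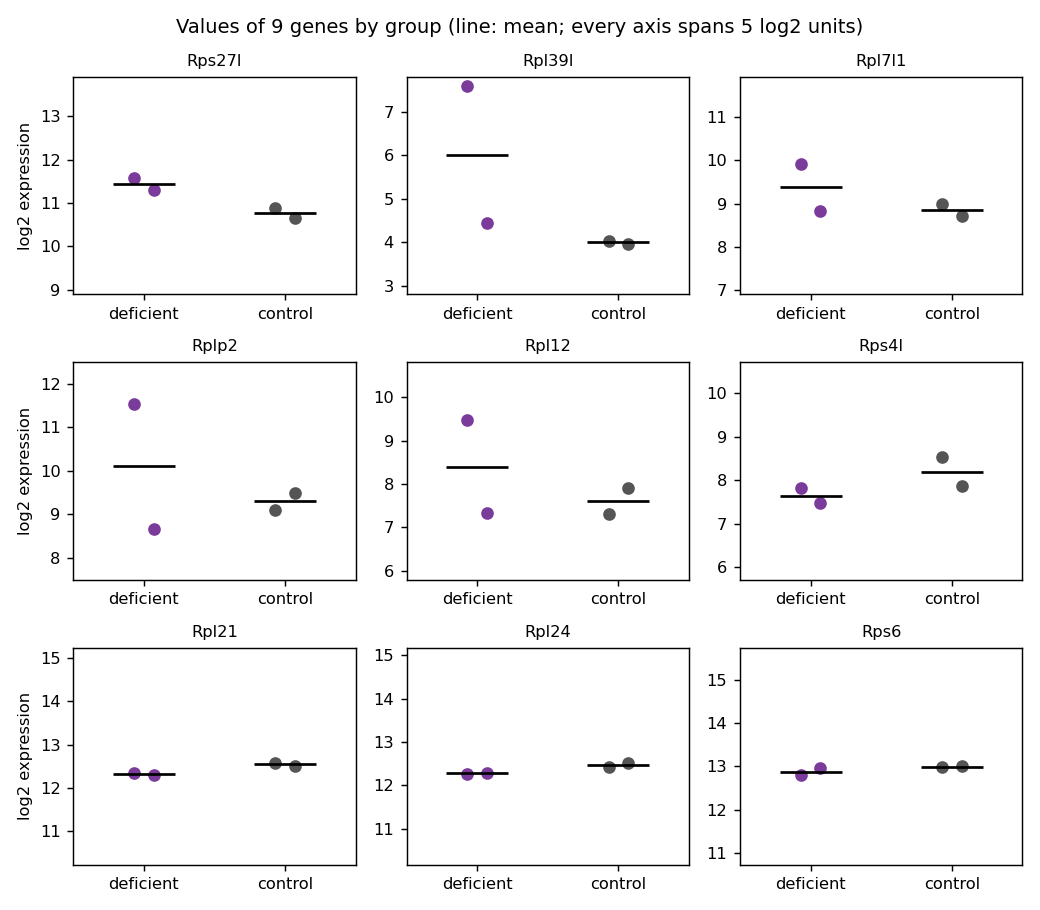
Log2 expression of 9 genes, deficient arrays left and control arrays right; points are arrays, lines are means, and each axis spans the same number of log2 units. Rps27l, Rpl21, Rpl24, Rps4l and Rps6 separated by group. Rpl39l, Rplp2 and Rpl12 were high on deficient replicate 1 alone, and the Rpl39l groups also did not overlap.

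Of the remaining large subunit paralogs, Rpl3l and Rpl10l averaged 4.93 and 5.47 over the 4 arrays and Rpl32l 8.11. Rpl3l, the form of Rpl3 found in heart and skeletal muscle, read 5.02 and 5.08 on the deficient arrays, against 4.88 and 4.76 on the control arrays, without overlap (difference 0.23, SE 0.14, limma adjusted p = 0.494). Rpl10l, which replaces Rpl10 in male meiosis, read 5.73 and 5.41, against 5.44 and 5.31 in controls, with overlap (difference 0.20, SE 0.18, limma adjusted p = 0.595). Rpl32l read 8.17 and 8.18 on the deficient arrays, against 8.01 and 8.09 on the control arrays, and was chosen after its values were seen. The groups did not overlap. The 7 members whose symbols end in l or l1 had a median difference of 0.23, and 6 of them were above 0. Among all genes the median was 0.16, and 13494 of 19946 were above 0.

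The small subunit, which reads the mRNA, had a median difference of −0.054, with 18 genes below 0 and 6 above. Its gene medians were 12.66 and 12.62 on the deficient arrays, against 12.62 and 12.68 on the control arrays. Of the 24 genes, 20 (83.3%) lay within 0.15, and 11 had groups that did not overlap, 7 lower and 4 higher. Of all genes, 15.2% were lower and 42.9% higher in that way. Subtracting each array's median moved the small subunit median to −0.13.

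**Figure D4:**
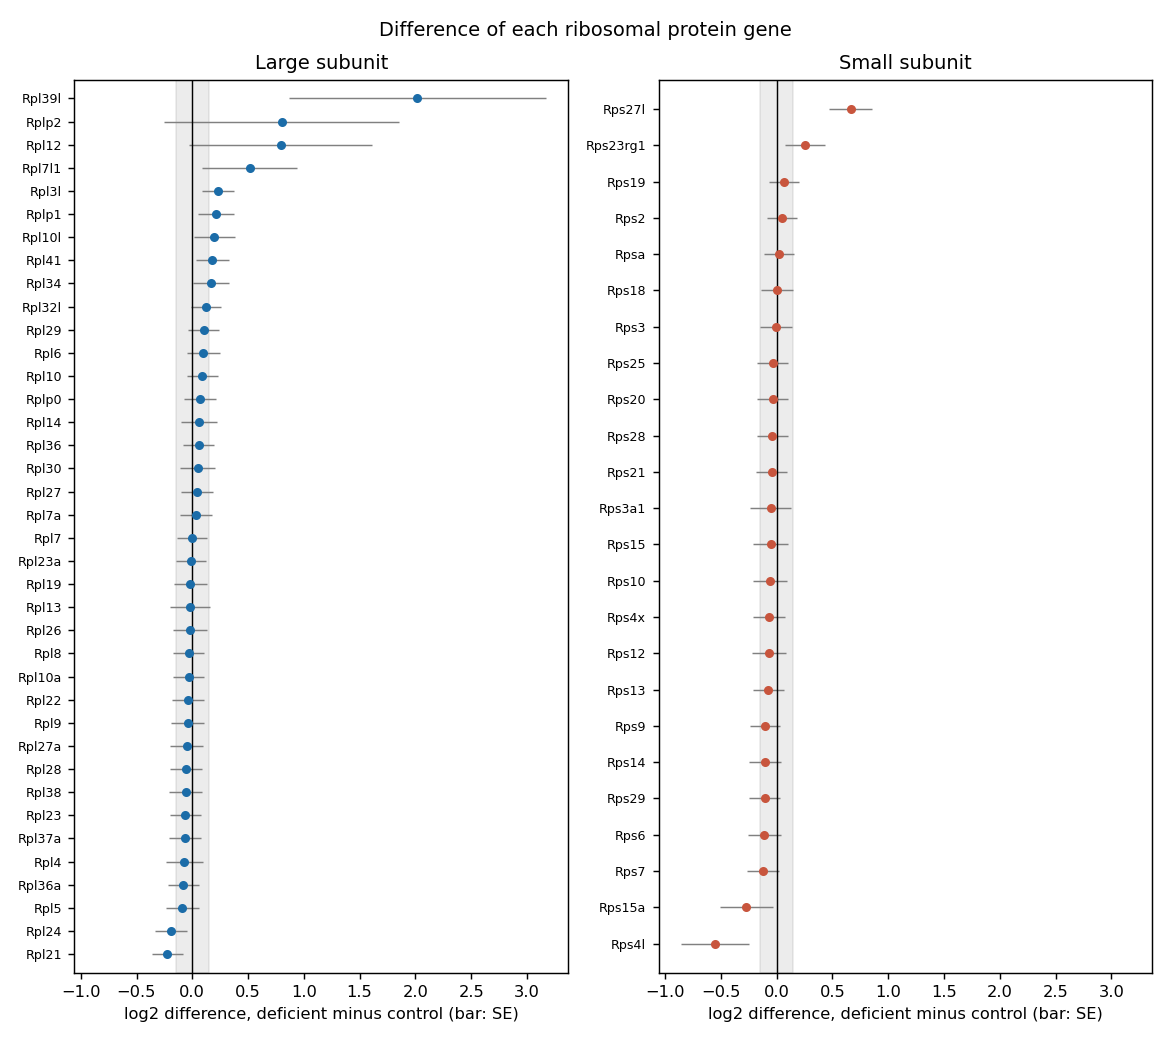
Log2 difference, deficient minus control (horizontal axis), of each large and small subunit gene, ordered by size; bars are limma's SE and the grey band spans −0.15 to 0.15. Rpl39l at 2.02 and Rps27l at 0.66 lead their subunits, and 47 of 62 genes lie inside the band.

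Rps27l stood out by its p. Its gene is a known p53 target, and its product is a close relative of Rps27. The probe set (10586604) read 11.57 and 11.29 on the deficient arrays, against 10.89 and 10.65 on the control arrays. Both deficient values lay above both control values (difference 0.66, SE 0.19, unadjusted p = 0.0270, limma adjusted p = 0.406). The difference ran from 0.52 to 0.80 when each array in turn was left out, and the unadjusted p passed 0.05 in 1 of those 4 fits. Summed erythroid, macrophage, stromal and B cell marker values were higher on the same arrays, and their part in this difference was not tested. Rps27 shared its probe sets with other symbols and was not analysed here.

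Rps4l, annotated as a transcribed pseudogene, had the lowest difference of the small subunit. It read 7.81 and 7.46 on the deficient arrays, against 8.52 and 7.86 on the control arrays, without overlap (difference −0.55, SE 0.30, limma adjusted p = 0.466). Its other probe set differed by 0.0050, so the pair disagreed. Rps15a read 10.20 and 10.03, against 10.13 and 10.65 in controls, with overlap, and its difference of −0.27 rested on control replicate 2, without which it was −0.012. Rps23rg1, a retrogene of Rps23, read 6.53 and 6.59 on the deficient arrays, against 6.15 and 6.46 on the control arrays, without overlap (difference 0.25, SE 0.18, limma adjusted p = 0.518).

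Rps19, Rps14, Rps7 and Rps29 are genes whose loss is linked in humans to failing red cell production. Rps19 read 12.17 and 12.19 on the deficient arrays, against 12.13 and 12.09 on the control arrays, without overlap (difference 0.068, SE 0.14, limma adjusted p = 0.803). Rps14, the gene of a deletion syndrome in human myelodysplasia, read 12.95 and 13.06, against 13.05 and 13.16 in controls (difference −0.11, SE 0.15, limma adjusted p = 0.709). The higher deficient value exceeded the lower control value, so the groups overlapped. Rps7 read 12.35 and 12.46 on the deficient arrays, against 12.58 and 12.48 on the control arrays, without overlap (difference −0.13, SE 0.15, limma adjusted p = 0.661).

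Rps29 was also lower without overlap, at 12.98 and 12.91 on the deficient arrays, against 13.07 and 13.03 on the control arrays (difference −0.11, SE 0.14, limma adjusted p = 0.691). Rps6, the protein phosphorylated by the ribosomal kinases downstream of mTOR, read 12.80 and 12.96, against 12.98 and 13.00 in controls, again without overlap (difference −0.11, SE 0.15, limma adjusted p = 0.699). Rps9, which helps to keep decoding accurate, read 12.54 and 12.52 on the deficient arrays and 12.64 and 12.64 on the control arrays (difference −0.11, SE 0.14, limma adjusted p = 0.689). The deficient values of Rps9 lay below both control values.

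Rps2, which lies near the mRNA entry channel, read 12.67 and 12.70 on the deficient arrays, against 12.61 and 12.66 on the control arrays. The groups did not overlap (difference 0.049). Its other probe sets differed by 0.24, without overlap, and by 0.009, with overlap. Rpsa, also described as a laminin receptor, was the brightest small subunit gene at 13.07 and 13.11 on the deficient arrays and 13.08 and 13.07 on the control arrays, with overlap. Rps15, also among the 3 brightest of the subunit, read 12.88 and 13.08, against 13.00 and 13.07 in controls, with overlap. Rps18 read 12.92 and 12.98, against 12.91 and 12.99 in controls (difference 0.0025, limma adjusted p = 0.994), and 3 ETS cores lay in its window. Rps3a1, another row without a curated mRNA and named for that after its values were seen, differed by −0.054.

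Several probe sets stood for 39 of the genes, at most 14 for 1 gene (Rps12), and 19 probe sets shared all 4 values with another. In 10 genes, Rpl13, Rpl19, Rpl23a, Rpl27a, Rpl7, Rpl7a, Rps12, Rps15, Rps18 and Rps4l, probe sets differed in sign. In 9 of these all differences stayed within 0.15, and Rps4l was the exception. Over all 218 probe sets the median difference was −0.032, and 77 did not overlap between groups (46 lower and 31 higher), against 52.9% of all probe sets (14% lower and 38.9% higher). At an unadjusted p under 0.05, 1 of the 218 was higher, against 6.64% of all probe sets. A further 239 probe sets named a ribosomal protein together with other symbols and were not members. Their median difference was −0.034 for the 193 with a large subunit symbol and 0.022 for the 46 with a small subunit symbol.

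The medians of members with and without the ETS cores were compared as a description, with no test. The median difference was −0.019 for the 19 members with CCGGAAG and −0.038 for those without it. In the large subunit these medians were 0.099 with it and −0.019 without it, and in the small subunit −0.042 and −0.062. For CGGAAG the member medians were −0.039 with it and 0.038 without it, and −0.046 and −0.032 once the symbols ending in l or l1 were left out. Over all measured genes with a promoter the medians were 0.034 with CCGGAAG and 0.17 without it.

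Genes that work with the ribosome spread more widely than the ribosomal proteins, but the lists were also dimmer. Median levels were 11.32 for translation factors and 8.34 for ribosome biogenesis factors, against 12.47 for the members. The translation factors that averaged above 12 in both groups differed by only −0.11 (Eef1b2) to 0.14 (Fau). The part of brightness in the wider spread was not tested. Translation factors with TOP mRNAs (18 of 22 measured) had a median difference of −0.053 (0.014 without deficient replicate 1), with 2 lower and 1 higher at an unadjusted p under 0.05, against 6.36% and 6.99% of all genes. Eif3e, an initiation factor subunit, read 7.14 and 7.71 on the deficient arrays, against 10.10 and 8.94 on the control arrays, without overlap (difference −2.09, SE 0.49, limma adjusted p = 0.375). Pabpc1, the poly(A)-binding protein, read 10.73 and 11.19, against 11.73 and 11.73 in controls (difference −0.77, limma adjusted p = 0.404). Eif3l, another subunit of the same initiation factor, read 11.07 and 11.01 on the deficient arrays, against 10.68 and 10.53 on the control arrays (difference 0.43, limma adjusted p = 0.414).

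Ribosome biogenesis factors, which process ribosomal RNA and assemble the subunits, had a median difference of −0.21 (80 of 82 measured), with 7 lower and 8 higher at an unadjusted p under 0.05, where all genes had 6.36% lower and 6.99% higher. Bysl, needed for small subunit assembly, read 10.07 and 10.05 on the deficient arrays, against 9.01 and 8.62 on the control arrays (difference 1.24, limma adjusted p = 0.291). Ddx10, an RNA helicase, read 4.62 and 5.07, against 7.21 and 6.86 in controls (difference −2.19, limma adjusted p = 0.222). Both groups were separate in each gene, in opposite directions. Rrp9 and Nhp2, which bind small nucleolar RNAs, differed by 1.21 and 0.76 (limma adjusted p = 0.254 and 0.335). Over left-out arrays the list's median ran from −0.35 to −0.028, the latter without deficient replicate 1.

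RNA polymerase I genes (15 found, of 18 listed symbols), which make the ribosomal RNA precursor, had a median difference of 0.021. It was −0.059 with array medians subtracted. Over left-out arrays it ran from −0.043 (without control replicate 1) to 0.13 (without deficient replicate 1). At an unadjusted p under 0.05, 1 gene was lower (Taf1b, −1.91, limma adjusted p = 0.291), against 6.36% of all genes. In the other direction 1 was higher (Polr1b, 0.66, limma adjusted p = 0.367), against 6.99%. Chaperones and importers of ribosomal proteins (17 of 17) had a median of −0.20 (0.091 without deficient replicate 2) with none past that threshold. Ipo9, an importin, differed by −0.42 (limma adjusted p = 0.426). Regulators from the MYC and mTOR pathways (14 of 15) had a median of −0.042 (−0.13 to −0.034 when each array in turn was left out). At that threshold 2 were lower and 1 higher, against 6.36% and 6.99% of all genes. Mtor, the kinase, differed by −0.60 (limma adjusted p = 0.392) and Eif4ebp1, the translation repressor it inactivates, by 1.01 (limma adjusted p = 0.408).

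In the p53 list 9 of 12 genes were measured, and Trp53 (p53 itself), Cdkn1a and Bax were not. The list joins Mdm2, which free Rpl5 binds, with other genes of the p53 pathway. Its median was −0.018, with 1 gene higher at an unadjusted p under 0.05, against 6.99% of all genes. The median was 0.11 without deficient replicate 1, 0.10 without control replicate 2, −0.083 without deficient replicate 2 and −0.075 without control replicate 1. The higher gene was Bbc3, which encodes the cell death protein PUMA and read 6.98 and 7.16 on the deficient arrays, against 6.56 and 6.58 on the control arrays (difference 0.50, limma adjusted p = 0.408). Mdm2 read 5.29 and 6.70, against 8.29 and 6.58 in controls, with overlap (difference −1.44, limma adjusted p = 0.470).

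The mitochondrial ribosomal proteins (77 genes, listed from the measured symbols only) had a median difference of 0.38, against −0.027 for the cytosolic ones and 0.16 for all genes. At an unadjusted p under 0.05 none was lower and 15 were higher, against 6.99% of all genes higher, and 37 (48.1%) were higher without overlap, against 42.9% of all genes. Mrpl52 read 10.81 and 10.80 on the deficient arrays, against 8.97 and 9.15 on the control arrays (difference 1.74, SE 0.15, limma adjusted p = 0.173). The list's median was 0.16 without deficient replicate 1 and 0.67 without deficient replicate 2.

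**Figure D5:**
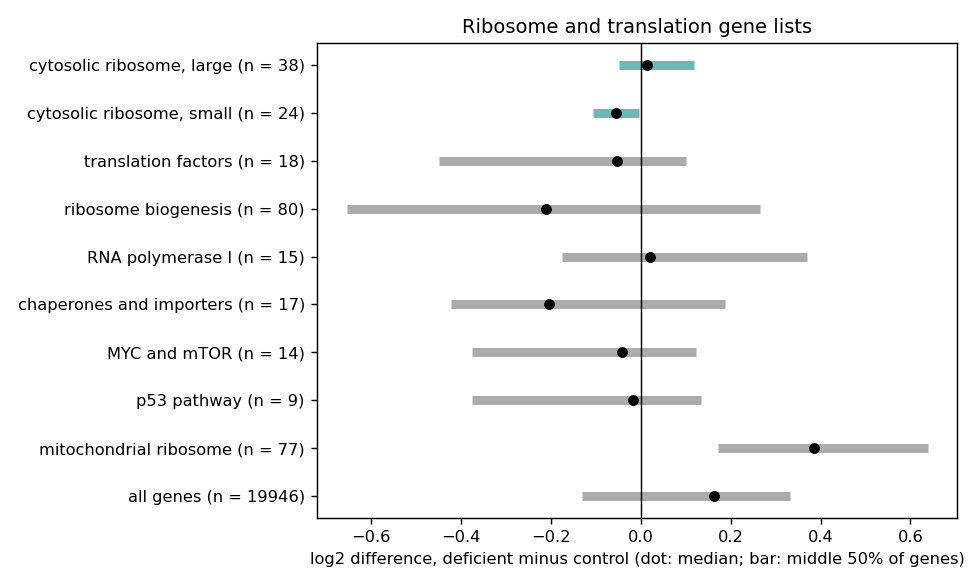
Log2 difference, deficient minus control (horizontal axis), of the ribosome and translation gene lists; dots are medians and bars span the middle 50% of genes. The 2 cytosolic subunits form the narrowest bars, near 0, and the mitochondrial ribosome lies at 0.38.

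Beside these values, the marker lists differed as follows. The erythroid list had a median difference of 2.04, with 11 of 14 genes higher at an unadjusted p under 0.05. For every list below, the shares of all genes at that threshold were 6.99% higher and 6.36% lower. The macrophage list (15 genes) had a median of 0.98 with 7 higher (0.53 without deficient replicate 1), the stromal and endothelial list (15 genes) 0.46 with 7 higher, and the B and plasma cell list (14 genes) 0.68 with 6 higher. Summed linear values were 4819 and 3042 on the deficient arrays, against 2158 and 1978 on the control arrays, for macrophage markers. They were 3211 and 2746, against 1007 and 1071 in controls, for stromal and endothelial markers. For B and plasma cell markers they were 3039 and 4404, against 2126 and 1860 in controls. Among the stromal and endothelial markers Sparc and Sfrp4 had the largest differences (3.80 and 4.09), while Pdgfrb and Pecam1 were lower (−0.50 each). The granulocyte and monocyte list (14 genes) had a median of 0.30 with 1 lower (Mpo, −0.86, limma adjusted p = 0.370) and 1 higher. Its summed values were 12878 and 9754 on the deficient arrays, against 13369 and 11705 on the control arrays, so median and sum differed in sign. The T and NK list (13 genes) had a median of 0.38 (0.13 without deficient replicate 2 and 0.63 without deficient replicate 1) with 3 higher. Its sums were lower on both deficient arrays, at 1576 and 2079, against 2320 and 2369 on the control arrays, with Nkg7 at a difference of −1.98 (limma adjusted p = 0.421). The 3 GABP subunit genes had a median of −0.67 with none past that threshold, and it was −0.13 without control replicate 1, −0.33 without deficient replicate 1 and −1.17 without control replicate 2. A list of surface genes used to sort stem and progenitor cells (6 of 7 measured) had a median of −1.63. It held Kit, Flt3, Cd34, Slamf1, Cd48 and Procr, of which Kit and Flt3 belong to the gate. All 6 were lower without overlap, against 15.2% of all genes.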

How the data were processed

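Per the submitters' processing notes, the deposited log2 expression values were made by the authors with RMA (background correction, quantile normalization and summary into probe sets) and Partek, with no versions given. Each value is 1 probe set on 1 array. No further logarithm or normalization was applied, and the small number of arrays bounds how precise a value can be. The platform annotation gave the gene symbols of the probe sets: 21797 had 1 symbol, 1613 several and 12146 none, and no genome build of the authors was found in the labels. A gene was stood for by its single-gene probe set with the highest mean.

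All 35556 probe sets were fitted with limma 3.58.1 in R 4.3.3 (lmFit and eBayes, genotype as the only term), with Benjamini-Hochberg adjustment over all of them and a threshold of 0.05. The procedure was tested on simulated data. Motifs were counted in RefSeq promoters of GRCm38.p6 with Python 3.11.15. Arrays with the same replicate number did not deviate together (r = −0.088), so numbers were not taken as pairs, and 0 value columns belonged to no sample. The members, lists and tests were chosen with earlier results of these data known. Named genes were those listed for a known role, the 5 lowest and 5 highest and the 3 brightest of each subunit, genes whose probe sets disagreed in sign, and up to 4 genes per list by p, with exceptions marked. The lists covered translation factors, ribosome biogenesis, RNA polymerase I, chaperones and importers, MYC and mTOR, p53 and the mitochondrial ribosome. They also covered GABP subunits, surface genes used to sort stem and progenitor cells, and 6 sets of cell type markers. Alternatives were cyclic loess, subtraction of array medians, leaving out dim probe sets, a variance trend, a replicate block, probe set means, leaving out each array, leaving out paralogs, rows with several symbols, and probe sets with a curated mRNA, of which the last 2 were added after seeing the data.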

Additional observations from a re-analysis of the deposited data

How the results depend on the processing

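With 2 arrays a group, no setting gave a probe set past the adjusted threshold, and the lowest adjusted p over the whole table ran from 0.148 to 0.522. The replicate block left the medians at 0.014 for the large and −0.054 for the small subunit, and it changed no call. The large subunit median was −0.025 with cyclic loess, −0.066 with array medians subtracted, −0.019 without paralogs and −0.034 in rows with several symbols, and it ran from −0.012 to 0.041 when each array was left out. The small subunit median was −0.13 with array medians subtracted and 0.022 in rows with several symbols, and ran from −0.085 to −0.014 (without control replicate 2) over left-out arrays. At an unadjusted p under 0.05, 1 large subunit gene was lower with the variance trend and 1 probe set in rows with several symbols. Between 0 and 4 large subunit genes were higher over left-out arrays, and the 4, without deficient replicate 2, were Rpl12, Rpl39l, Rpl7l1 and Rplp2. The 1 higher small subunit gene, Rps27l, no longer passed with array medians subtracted, and the count was 0 without paralogs, in rows with several symbols, and without deficient replicate 1, control replicate 1 or control replicate 2 (range 0 to 1).

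The median of all probe sets was 0.15, but 0.065 with array medians subtracted and −0.0045 with cyclic loess. Signs of small differences turned with it. With array medians subtracted, Rps19 was at −0.012, Rps2 at −0.031, Rpsa at −0.062, Rplp0 at −0.011, Rpl36 at −0.022, Rps18 at −0.078 and Rpl30 at −0.033. With cyclic loess, Rpl10l was at −0.022, Rps18 at −0.016 and Rpl30 at −0.0039. Leaving out single arrays turned the sign of Rpl7l1 (−0.027 to 1.06), Rpl12 (−0.28 to 1.87), Rplp2 (−0.63 to 2.23), Rpl4 (−0.17 to 0.032), Rpl38 (−0.14 to 0.021), Rpl26 (−0.11 to 0.063), Rps15 (−0.15 to 0.043), Rpl22 (−0.091 to 0.014), Rps18 (−0.036 to 0.041), Rpsa (−0.0036 to 0.042), Rpl37a (−0.14 to 0.0071), Rpl30 (−0.047 to 0.14), Rps3a1 (−0.19 to 0.084) and Gabpa (−1.42 to 0.0021). The causes were not tested. Where an array was left out, the lone array of its group was assumed to vary like the other group. The mean over a gene's probe sets gave medians only, 0.0038 and −0.055, and probe sets with a curated mRNA gave −0.0063 and −0.050.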
